A study of Mus musculus with 4 samples.

Results

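The replication-dependent histone genes encode the bulk of the histones that package newly replicated DNA, and here they are the protein-coding genes of the mouse mm9 annotation (GENCODE M1) whose symbols start with Hist1h, Hist2h, Hist3h or Hist4h. The rule found 67 of the 22367 protein-coding genes on assembled chromosomes: 6 H1, 19 H2A, 18 H2B, 11 H3 and 13 H4 genes. KDM5C, named SMCX in the labels, is an X-encoded demethylase of methylated lysine 4 on histone H3, and its occupancy was profiled by ChIP-Seq in male mouse epiblast-like cells (EpiLCs) to ask whether it binds at Xist. All 4 samples were given as C57BL/6J cells at day 2 that carried a Tsix deletion (XΔTsixY), a change shared by both genotypes. The study's methods describe other or mixed strain backgrounds for its mutant mice, and the difference was not resolved here. The groups were an anti-KDM5C immunoprecipitate and an input without antibody from cells with an intact Kdm5c gene (wtSmcx, here WT), and the same pair from Kdm5c knockout cells (koSmcx, here KO), with 1 sample in each group. By the study's methods the WT immunoprecipitation used independent cell lines and the KO a single sample, and the Kdm5c deletion removes the exons of the demethylase domain and leaves a trace of mutant protein. Each genotype was deposited as 1 peak list, so no value below has a replicate error and no test was run. Peak lists measure neither RNA nor cell identity, and markers of EpiLCs were therefore not checked.

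Replication-dependent histone genes lie in clusters, lack introns, and are transcribed mainly in S phase, under the coactivator NPAT. Their mRNAs end in a conserved stem-loop, bound by SLBP, in place of a poly(A) tail. Most H2A and H2B genes are paired head to head across a short shared promoter, and a few members, among them the H1 variant H1t and the H2A and H2B variants TH2A and TH2B, are expressed chiefly in the male germ line. The stem-loop letters CTTTTNAG were searched within 150 bases after the stop codon as a check of the name-based rule. They occurred in 62 of the 67 genes (92.5%) and in 2.09% of other protein-coding genes. The 5 without them were Hist1h3g, Hist1h4a, Hist1h2al, Hist2h2be and Hist2h2bb.

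A gene was called bound when the midpoint of a WT peak lay within 1 kb of one of its annotated transcription start sites (TSSs). WT peaks marked 21 of the 67 histone genes, or 31.3% (exact 95% binomial interval 20.6 to 43.8%), beside 5337 of the 22300 other protein-coding genes, which is 23.9%. The histone share thus lay little above the background, whose value its interval spanned. These 21 genes drew on only 17 distinct peaks, since 9 peaks were counted for 2 genes and 8 for 1. That is 1.24 genes per peak, against 1.06 for the other protein-coding genes. Counting each peak only for its nearest protein-coding TSS left 16 histone genes (23.9%) and 21.7% of the others. A requirement that the peak cover the TSS left 11 histone genes (16.4%) beside 17.2% of the others, so there the order of the shares turned. Among peaks at or above the WT median score of 82, the shares were 8.96% (6 genes) and 13%.

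The sequences below are start-site regions of some of the histone genes compared in the text, all mm9 and written 5′ to 3′. The first 3 are stretches between the TSSs of head-to-head H2A and H2B genes, on the plus strand: the testis pair Hist1h2aa and Hist1h2ba with peaks at both genes (chr13:24026029-24026328), the pair Hist1h2an and Hist1h2bp with a peak on either side (chr13:21879088-21879329), and the pair Hist1h2ao and Hist1h2bq without a peak (chr13:21902069-21902235). The other two are the 250 bases before the TSS of Hist3h2ba (chr11:58762163-58762412, plus strand), the histone gene with the highest score, and of the testis gene Hist1h1t (chr13:23787430-23787679, plus strand), which had no peak. Capitals mark, on either strand, TATAAA, the CCAAT box, the octamer ATTTGCAT read by POU-domain factors, the H1 box AAACACA, the E-box CACGTG and the E2F core GCGGGA.
Hist1h2aa/Hist1h2ba: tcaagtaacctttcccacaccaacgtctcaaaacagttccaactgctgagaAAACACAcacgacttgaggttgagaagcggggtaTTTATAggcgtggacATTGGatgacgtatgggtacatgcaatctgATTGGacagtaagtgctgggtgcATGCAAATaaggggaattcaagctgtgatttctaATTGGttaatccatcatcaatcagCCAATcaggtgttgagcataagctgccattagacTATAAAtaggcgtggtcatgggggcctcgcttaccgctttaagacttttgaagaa
Hist1h2an/Hist1h2bp: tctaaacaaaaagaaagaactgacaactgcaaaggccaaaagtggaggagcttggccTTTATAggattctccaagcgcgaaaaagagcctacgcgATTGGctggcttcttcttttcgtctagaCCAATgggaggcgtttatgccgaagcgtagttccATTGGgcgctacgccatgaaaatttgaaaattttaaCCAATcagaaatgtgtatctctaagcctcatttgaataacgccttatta
Hist1h2ao/Hist1h2bq: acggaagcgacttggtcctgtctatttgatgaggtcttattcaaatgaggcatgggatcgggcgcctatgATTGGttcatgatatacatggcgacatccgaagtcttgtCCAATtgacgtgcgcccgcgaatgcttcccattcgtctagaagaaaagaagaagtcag
Hist3h2ba: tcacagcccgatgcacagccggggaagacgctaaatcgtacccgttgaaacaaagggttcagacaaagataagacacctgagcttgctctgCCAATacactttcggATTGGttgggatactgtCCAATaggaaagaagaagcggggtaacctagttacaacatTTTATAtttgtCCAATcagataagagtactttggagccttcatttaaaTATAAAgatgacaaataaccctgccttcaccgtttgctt
Hist1h1t: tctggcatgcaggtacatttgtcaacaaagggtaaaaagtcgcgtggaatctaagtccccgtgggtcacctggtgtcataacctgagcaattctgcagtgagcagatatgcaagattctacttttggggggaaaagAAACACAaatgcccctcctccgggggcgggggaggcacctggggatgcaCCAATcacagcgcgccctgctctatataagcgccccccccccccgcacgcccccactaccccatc

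By histone type, H2A and H2B are 37 of the 67 genes and held 15 of the 21 bound (40.5% of the 37, interval 24.8 to 57.9%). WT peaks marked 8 of 18 H2B genes (44.4%, interval 21.5 to 69.2%) and 7 of 19 H2A genes (36.8%, 16.3 to 61.6%). The H3 genes had 3 of 11 bound (27.3%, 6.02 to 61%) and the H4 genes 2 of 13 (15.4%, 1.92 to 45.4%). Of the 6 genes for the linker histone H1, Hist1h1b alone was bound (16.7%, 0.421 to 64.1%). All of these intervals overlap, and each spans the 23.9% of other protein-coding genes apart from that of H2A and H2B together. They cover counting error only, since genes that share a peak are not independent of one another. Among the 15 H2A and H2B genes were head-to-head pairs in which a shared peak was counted for both genes. With each peak counted only for its nearest protein-coding TSS, 5 H2A and 6 H2B genes were left, beside 21.7% of other protein-coding genes. The interval of H2A and H2B together therefore does not by itself place their share above the background.

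**Figure D1:**
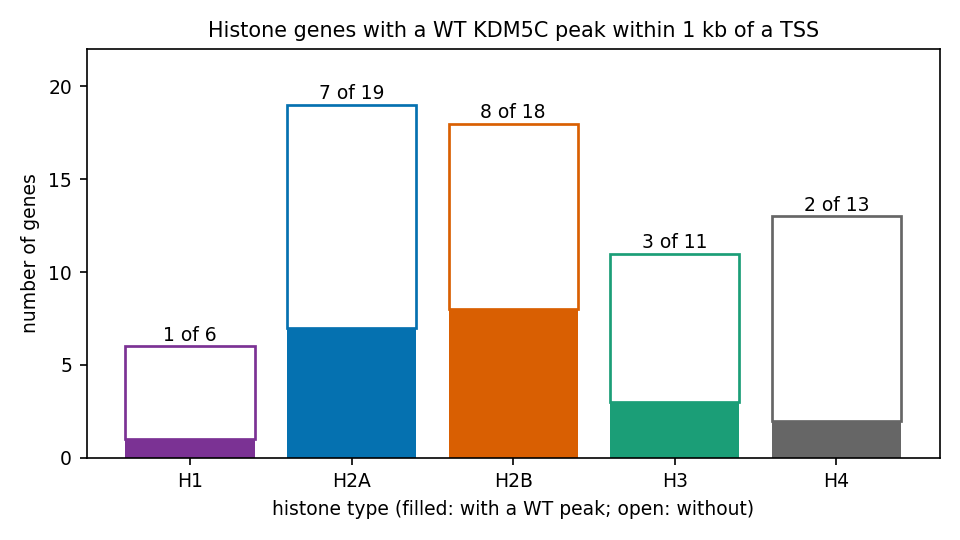
Number of replication-dependent histone genes of each type (bars, y axis from 0), with the filled part for genes that have a WT peak midpoint within 1 kb of a TSS and the open part for the rest. H2B (8 of 18) and H2A (7 of 19) hold 15 of the 21 bound genes.

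By cluster, the Hist1 genes of chromosome 13 had 15 of 55 bound (27.3%, interval 16.1 to 41%) and the Hist2 genes of chromosome 3 had 4 of 9 (44.4%, 13.7 to 78.8%). Hist3 on chromosome 11 had Hist3h2ba bound and Hist3h2a not, and the lone Hist4 gene, Hist4h4 on chromosome 6, was bound. Genes of Hist1 fell into 2 long runs and the isolated Hist1h2al, which had no peak. The first run (chr13:21807632-22135545) held 23 genes, 6 of them bound, and the second (chr13:23622919-24026720) held 31, 9 of them bound. Peaks at histone genes were thus spread over every cluster, with no cluster bound throughout apart from the single Hist4 gene.

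Within each Hist1 run the bound genes were bunched, a pattern described here after the positions were seen. In the second run, 5 peaks lay near its start, at genes from Hist1h4h to Hist1h3d. No WT peak then occurred for 357.4 kb (chr13:23668160-24025539), until the testis pair Hist1h2ba and Hist1h2aa at the far end. That stretch held 16 histone genes, from Hist1h4d to Hist1h1a: 4 H1, 2 H2A, 3 H2B, 3 H3 and 4 H4. The share of 50-base windows within 500 bp of their TSSs that occur once in the genome ranged from 53.5 to 100%, with a median of 79.6%, and 8 of them had CpG-rich promoters. Another 7 protein-coding genes in the stretch, among them Hfe and 4 Slc17a transporter genes, were unbound too. In the first run, the longest stretch without a peak was 193.7 kb (chr13:21879739-22073456). It held 6 histone genes with next to no such unique sequence at their TSSs (0 to 5.78%), so the 2 empty stretches differed in this respect. The peak that ended the stretch was that of Pom121l2, not of a histone gene. Beyond that peak, Hist1h2ah, Hist1h2bk, Hist1h4i, Hist1h2ag and Hist1h2bj were also unbound, with 44.1 to 79.4% unique windows. The lack of peaks in the first run was thus not limited to genes with next to no unique sequence.

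**Figure D2:**
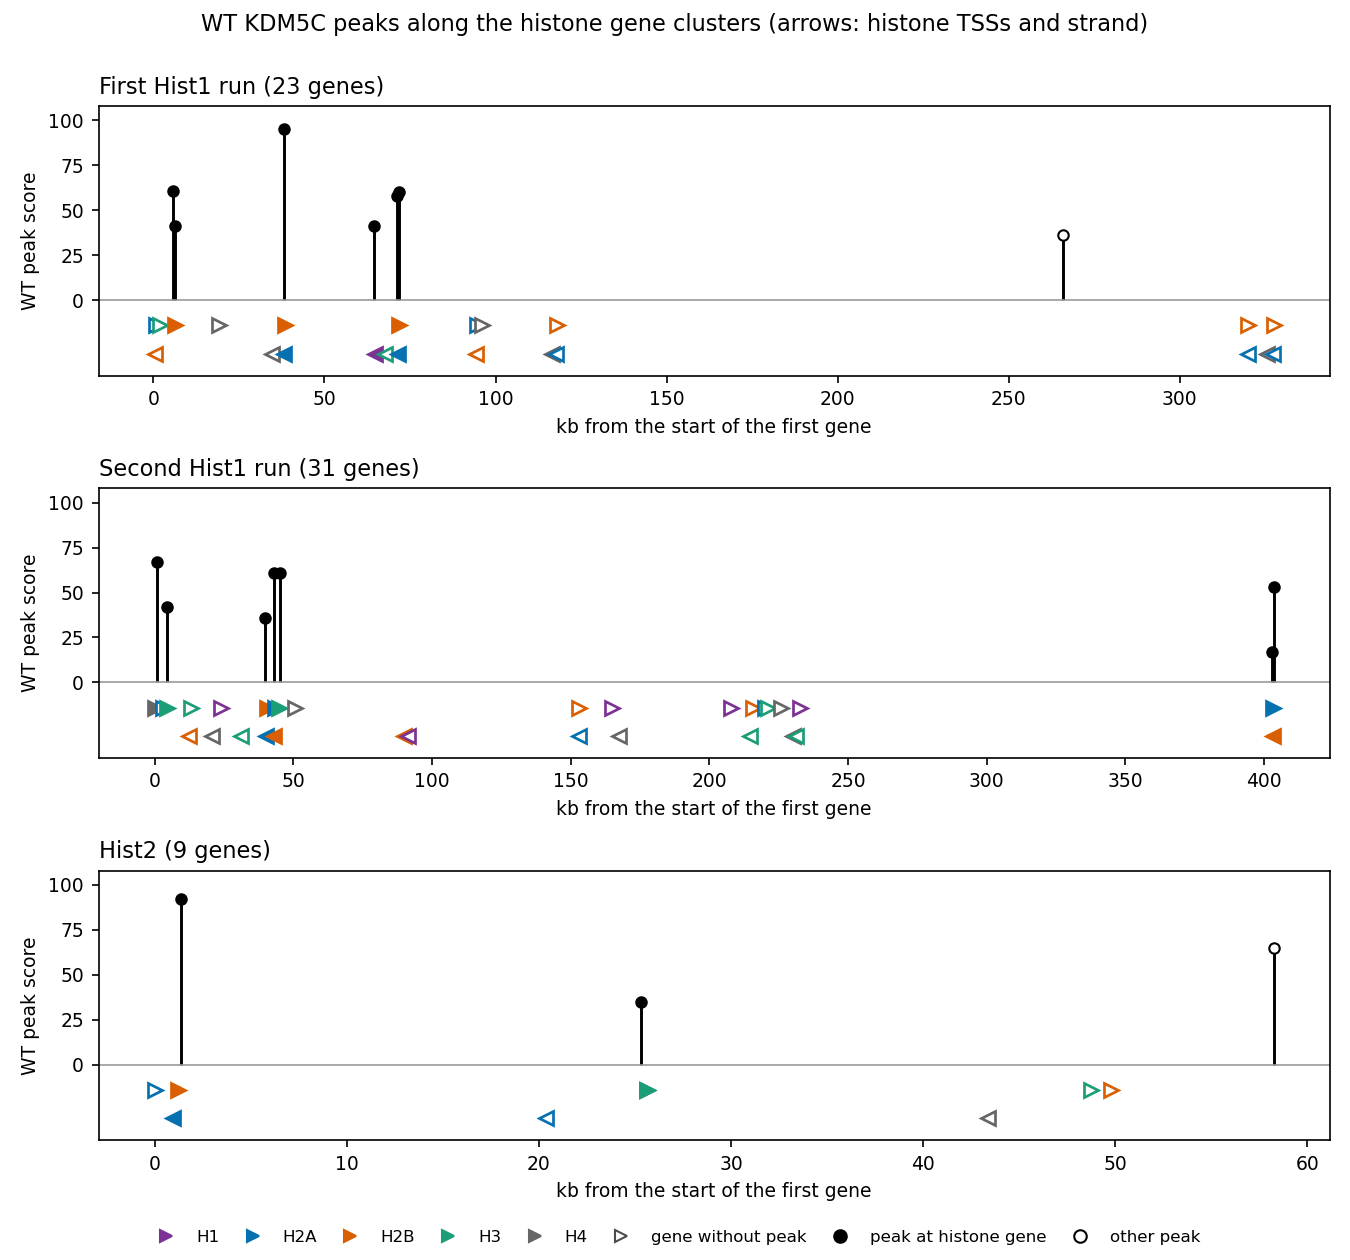
WT KDM5C peak scores (y axis, black stems) along the 2 long Hist1 runs and the Hist2 cluster, with the x axis in kb from the start of the first gene. Arrows below the line mark the TSS and strand of each histone gene, coloured by type and filled where the gene has a peak. In the second Hist1 run the 5 peaks near its start and the 2 at its far end are separated by 357.4 kb without a peak.

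Of the 11 other protein-coding genes inside the runs, Pom121l2 was bound (score 36) and the rest were not (9.09%, interval 0.23 to 41.3%, which spans the 23.9% background). One further WT peak, at chr3:96081746-96082444 with a score of 65, lay inside Hist2 at 8451 bp from its nearest protein-coding TSS, that of Hist2h2bb. Of 3 annotated histone-named pseudogenes, Hist1h2aj had a WT peak within 1 kb. Both of the peaks counted for Hist1h2bm lay nearer to the TSS of this pseudogene, and the gene to which that signal belongs cannot be told apart.

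The scores of the peaks at histone genes were modest. The deposited score is 10 times the −log10 of a peak's q-value, with decimals dropped. Over the 17 peaks it ranged from 17 to 169 with a median of 60 (quartiles 41 and 67), whereas the other 5047 peaks at protein-coding TSSs had a median of 87 (quartiles 50 and 171) and reached 2460. Of the 17 peaks, 14 lay below that median and 4 reached the WT median score, while 0 reached the WT 90th percentile of 320. Fold enrichment over input ranged from 2.39 to 4.81 with a median of 3.56, near the 3.73 of the other TSS peaks. The histone peaks were also narrower, with a median width of 399 bp beside 541 bp. Peaks at histone genes were therefore mostly of low to middle score in a list of 6916.

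**Figure D3:**
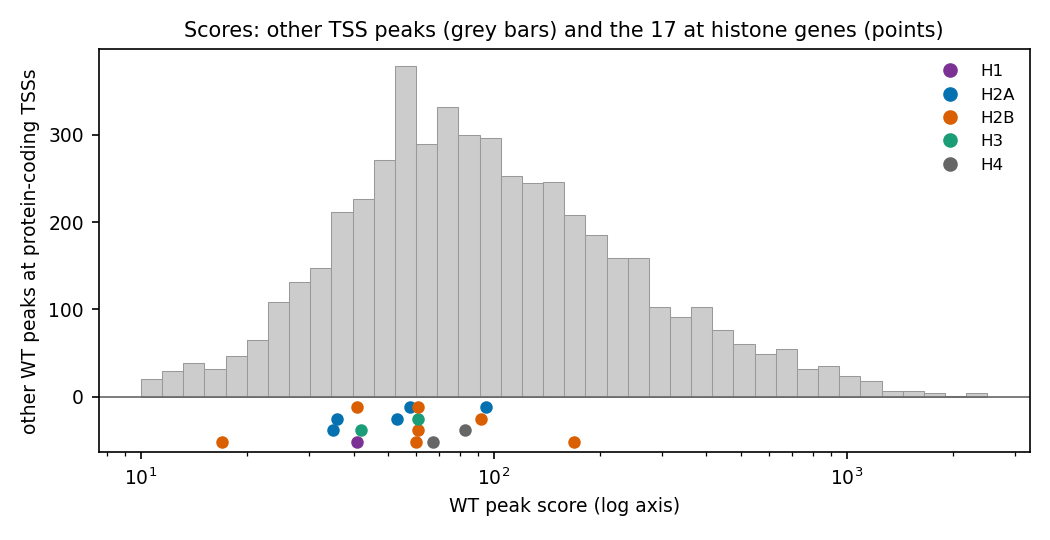
Scores on a log x axis for the 5047 other WT peaks at protein-coding TSSs (grey bars, number of peaks per bin on the y axis) and for the 17 peaks at histone genes (points under the axis, coloured by type, with height for legibility only). The histone peaks lie between 17 and 169, most of them in the lower part of the grey distribution.

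Hist3h2ba, an H2B gene, had the peak with the highest score among the histone genes. It spanned chr11:58762362-58762888, with a score of 169 and 4.71-fold enrichment, and its summit lay in the coding sequence, 205 bp past the TSS. The peak ranked 1628 in the WT list and stood above 74.6% of TSS peaks. Hist4h4, the H4 gene that lies alone on chromosome 6, had a peak at chr6:136752511-136752909 with a score of 83 and 3.14.-fold enrichment That peak covered the TSS and had its summit 174 bp downstream.

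Many of the bound genes were in head-to-head pairs. Among the histone genes were 13 divergent pairs, 12 of H2A with H2B and 1 of Hist1h2bh with the H3 gene Hist1h3f. A WT peak marked 6 of the pairs, all H2A with H2B, and by the 1 kb rule both genes of each of the 6 were bound. The TSSs of these 6 pairs lay 176 to 306 bp apart, so 1 peak was readily counted for both genes. Counting each peak only for its nearest protein-coding TSS left Hist1h2ad, Hist1h2bg, Hist1h2bn and Hist2h2ac of these pairs unbound, and Hist2h3c1 outside them. The shares that follow use the 1 kb rule. Of the 26 genes with a divergent partner, 12 were bound (46.2%, interval 26.6 to 66.6%), against 9 of the 41 without (22%, 10.6 to 37.6%). Among the other protein-coding genes, 38.3% of the 2279 with a divergent partner and 22.3% of the 20021 without were bound, so a like difference was present outside the histone genes.

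Most peaks at the pairs lay to 1 side of the shared promoter. At Hist1h2ak and Hist1h2bn the peak (chr13:21845272-21846136, score 95, 4.81-fold enrichment) was 865 bp wide and covered the whole 215 bases between the TSSs. At Hist2h2be and Hist2h2ac the peak (chr3:96024985-96025453, score 92, 3.49-fold enrichment) covered 59 bases of that stretch, on the Hist2h2be side. The peak counted for Hist1h2bf and Hist1h2ad (chr13:23665808-23666118, score 61, 4.25-fold enrichment) covered 53 bases, on the Hist1h2bf side. At Hist1h2ae and Hist1h2bg the peak (chr13:23662639-23662983, score 36, 3.37-fold enrichment) lay wholly downstream of the Hist1h2ae TSS and covered 0 bases between the TSSs. Each of these peaks had its summit in the coding sequence of the nearer gene.

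Hist1h2an and Hist1h2bp, whose shared promoter is printed above, had 1 peak on either side and none over the 242 bases between their TSSs. The Hist1h2an peak (chr13:21878573-21878975) had a score of 58 and 4.02-fold enrichment, and the Hist1h2bp peak (chr13:21879365-21879738) a score of 60 and 3.86.-fold enrichment The summits lay 357 bp into Hist1h2an and 266 bp into Hist1h2bp, or 219 bp past a second annotated TSS of Hist1h2bp. All but a trace of the stretch between the genes was unique in the genome (99.7% of 50-base windows), whereas no window over the Hist1h2bp summit was.

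Of the testis histone genes, Hist1h2ba (TH2B) and Hist1h2aa (TH2A) were bound and Hist1h1t (H1t) was not. The divergent pair carried 2 peaks. The one nearer Hist1h2aa (chr13:24026324-24026629) had a score of 53 and 3.3-fold enrichment, and its summit lay 106 bp past the TSS. The one nearer Hist1h2ba (chr13:24025540-24026072) had a score of 17 and 2.39-fold enrichment, the lowest of the 17 peaks on both measures, and was the 1 histone peak whose q-value was 0.001 or more. Its summit lay 30 bp upstream of the Hist1h2ba TSS, in the printed stretch. All 50-base windows over both summits were unique. Hist1h1t lay 119684 bp from the closest WT peak midpoint, within the long empty stretch, although its TSS region was 100% unique.

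Among the H3 genes, Hist1h3d (chr13:23667833-23668159) had a peak with a score of 61 and 4.25-fold enrichment, with the summit in the coding sequence, 439 bp past the TSS. Hist1h3g (chr13:23626975-23627757) had a score of 42 and 3.2-fold enrichment, with the summit 87 bp upstream. The third, Hist2h3c1, shared a peak with the H2A gene Hist2h2aa1 (chr3:96048983-96049298, score 35, 2.73-fold enrichment), with its midpoint 321 bp upstream of the Hist2h2aa1 TSS. Hist2h2aa1 has a second copy in the cluster, Hist2h2aa2, which had no peak, and 31.5% of the windows near either TSS were unique. The peak itself lay mostly in unique sequence, with 85.4% of its windows and 100% of those over its summit found once in the genome.

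The linker histone gene Hist1h1b was bound by a wide peak of low score. It spanned 939 bp (chr13:21871655-21872593), the widest of the 17, with a score of 41 and 2.82.-fold enrichment The peak covered the TSS and the whole gene, and its summit, 754 bp downstream, lay just past the annotated end. Every 50-base window within this peak was unique. The 5 unbound H1 genes lay in the second run, and 4 of them in the long empty stretch.

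The H4 gene Hist1h4h was the bound gene nearest the 1 kb limit, with a midpoint 847 bp downstream of its TSS (chr13:23623567-23623966, score 67, 3.69-fold enrichment). This peak began 648 bp downstream, beyond the coding sequence, and also lay within 1 kb of the TSS of the noncoding gene Gm11335. Just outside the limit were the H2A genes Hist2h2ab at 1380 bp and Hist1h2af at 1591 bp.

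Most peak midpoints lay downstream of the nearest histone TSS, in 15 of 17 peaks (88.2%), and in 63.8% of the other TSS peaks. At head-to-head pairs, any point outside the short stretch between the TSSs is downstream of the nearest one. The other TSS peaks were not matched for such pairs, so these shares and the distances below are not a like comparison. The median summit lay 190 bp downstream, beside 78 bp for the others. Of the 17 peaks, 10 covered the nearest TSS (58.8%), against 71.5% of the others, and 11 had their summit in a histone coding sequence. Histone genes are short and have little sequence before the start codon, so a summit at this distance falls in the coding sequence.

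**Figure D4:**
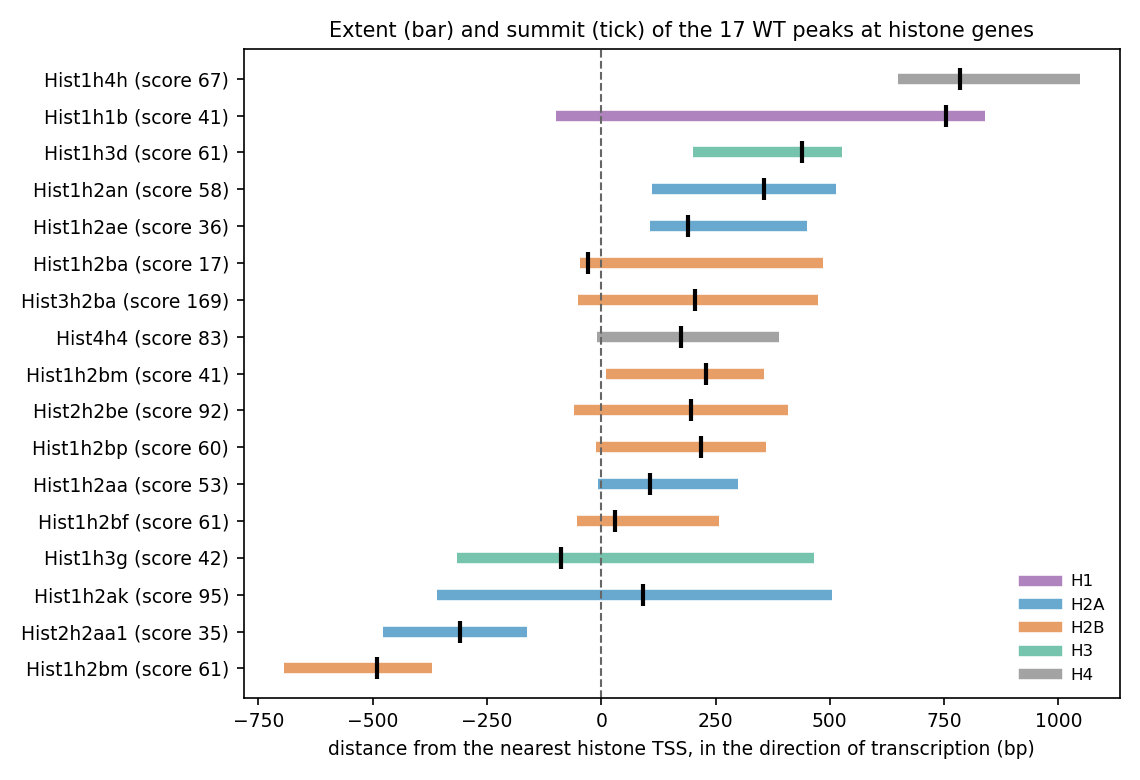
Extent (coloured bars) and summit (black ticks) of the 17 WT peaks, as distance in bp from the nearest histone TSS in the direction of transcription, labelled by nearest gene and score. In 15 of 17 the midpoint is right of the dashed line at the TSS, and the Hist1h4h peak lies farthest downstream.

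At 4 H2B genes the summits fell in the coding sequence within a common stretch, and their sequences are shown because they carry the same coding stretch. The summits lay 205 bp downstream of the TSS in Hist3h2ba, 229 bp in Hist1h2bm, 197 bp in Hist2h2be and 266 bp in Hist1h2bp (219 bp from its second TSS). The 100 bases around each (mm9, plus strand, CG in capitals) are chr11:58762568-58762667, chr13:21814092-21814191, chr13:21879546-21879645 and chr3:96025191-96025290.
Hist3h2ba: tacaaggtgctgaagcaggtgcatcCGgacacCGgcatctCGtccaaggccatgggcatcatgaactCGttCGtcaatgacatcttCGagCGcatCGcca
Hist1h2bm: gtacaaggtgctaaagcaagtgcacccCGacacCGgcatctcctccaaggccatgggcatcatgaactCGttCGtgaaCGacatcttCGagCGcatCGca
Hist1h2bp: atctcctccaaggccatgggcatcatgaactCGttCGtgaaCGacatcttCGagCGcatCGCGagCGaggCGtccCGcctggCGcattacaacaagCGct
Hist2h2be: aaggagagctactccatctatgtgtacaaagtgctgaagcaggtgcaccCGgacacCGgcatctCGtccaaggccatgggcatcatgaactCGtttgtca

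The longest run of bases that these 4 windows share was 29 bases, tccaaggccatgggcatcatgaactcgtt. It occurred in 15 of the 18 H2B genes, of which 7 were bound, so the run by itself does not set bound genes apart. The share of 50-base windows over the summit that occur once in the genome was 88% at Hist3h2ba, 100% at Hist2h2be, 26% at Hist1h2bm and 0% at Hist1h2bp. The other Hist1h2bm peak (chr13:21813218-21813542, score 61, 4.25-fold enrichment), 491 bp upstream of the TSS at its summit, likewise had no unique window over the summit. The downstream Hist1h2bm peak (chr13:21813924-21814270) had a score of 41 and 3.56.-fold enrichment

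Repeated sequence was common at histone genes, and only uniquely mapped reads entered the peak calls. The share of 50-base windows within 500 bp of the TSS that occur once in the genome had a median of 70.7% over the 67 genes and 100% over the other protein-coding genes. By type the median was 93.2% for H1, 79.7% for H4, 66.7% for H3, 57.6% for H2B and 54.8% for H2A. H2A and H2B thus had the least unique sequence and, under the 1 kb rule, the largest bound shares. With peaks required to cover the TSS, 6 of 18 H2B genes remained, but only 2 of 19 H2A genes, beside 1 of 6 H1 genes. Bound histone genes had a median of 61% (range 29.8 to 100%) and unbound ones 71.4% (0 to 100%). The 6 genes under 10%, Hist1h2ao, Hist1h2bq, Hist1h4m, Hist1h4n, Hist1h2ap and Hist1h2br, were all unbound (0.465% of the other genes in this range were bound), and nearly all reads from their TSS regions match more than 1 place. Of the 9 genes between 10 and 50%, 5 were bound (55.6%, interval 21.2 to 86.3%), beside 3.45% of 580 others. Of the 42 between 50 and 90%, 13 were bound (31%, interval 17.6 to 47.1%), where 5.71% of 1928 other genes were. These backgrounds were not matched for CpG content. Among CpG-rich genes with under 90% unique windows, 37% of histone genes (interval 23.2 to 52.5%) and 28.4% of the others were bound. At 90% or more, 3 of 10 histone genes were bound (30%, 6.67 to 65.2%), beside 27.2% of 19147 others. The part of repeated sequence in the counts by type was not tested.

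**Figure D5:**
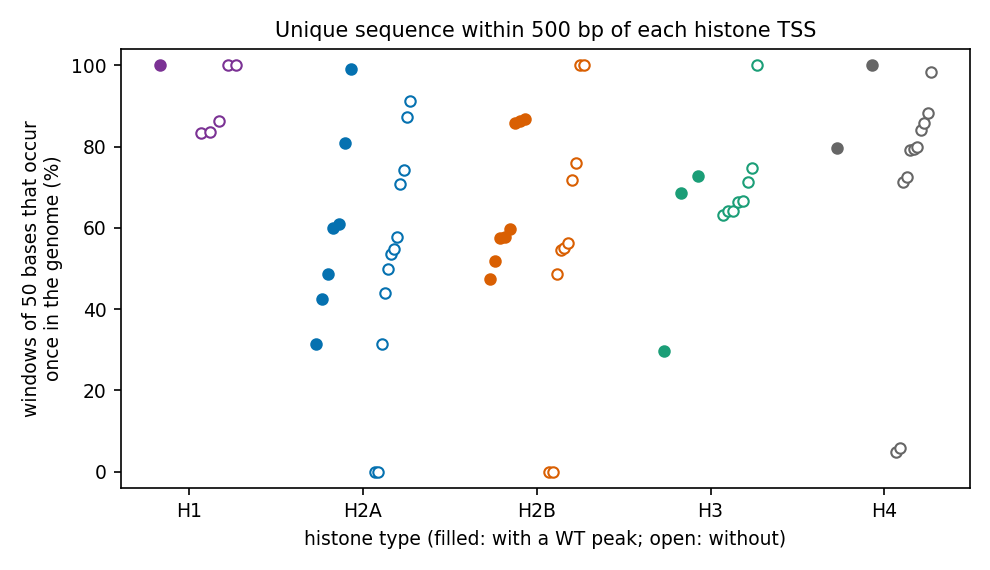
Share of 50-base windows within 500 bp of the TSS that occur once in the mm9 genome (y axis, %), one point per histone gene, by type, filled where the gene has a WT peak. The 6 genes near 0 are H2A, H2B and H4 genes without a peak, and filled points reach down to 29.8%.

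CpG content was high at histone promoters. Promoters with an observed-to-expected CpG ratio of at least 0.6 and a GC content of at least 50% within 500 bp of the TSS numbered 50 of 67 (74.6%), against 44.1% of the other genes. Of these 50, 18 were bound (36%, interval 22.9 to 50.8%), while 44.1% of the 9829 other CpG-rich genes were. Read against CpG-rich genes, the histone share was therefore not above its background. Of the 17 histone genes that were not CpG-rich, 3 were bound (17.6%, interval 3.8 to 43.4%), beside 8.03% of 12471 others. The median CpG ratio was 0.883 for bound and 0.866 for unbound histone genes, and 0.546 for the other genes. Where less than 90% of the sequence was unique, 17 of 46 CpG-rich histone genes (37%, interval 23.2 to 52.5%) and 28.4% of 320 other CpG-rich genes were bound. Where 90% or more was unique, 1 of 4 CpG-rich histone genes was bound (25%, interval 0.631 to 80.6%), beside 44.6% of 9509 others. Each interval spans the share of the other genes, so neither order is settled.

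Promoter motifs differed with histone type. In the 300 bases from 250 before to 50 after the TSS, on either strand, CCAAT occurred in 57 of 67 histone genes (85.1%) and in 37.9% of all protein-coding genes. TATAAA occurred in 38 (56.7%) beside 13.4% of all. The octamer ATTTGCAT was found in 15 (22.4%), 7 H2A and 8 H2B genes, beside 1.73% of all. The H1 box AAACACA was found in 10 (14.9%), of which 5 were H1 genes, beside 6.42% of all. GCGGGA was found in 17 (25.4%), near the 24.4% of all. None of these letter strings contains another, on either strand. The counts are by gene, so at head-to-head pairs 1 site can count for both genes. The octamer printed for Hist1h2aa and Hist1h2ba was counted in this way.

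Among bound histone genes 17 of 21 held TATAAA, as did 21 of the 46 unbound. Of the 21 bound genes, 12 were in 6 pairs with shared promoters, so these counts are not of independent sites. CCAAT was present in 19 bound and 38 unbound genes, and the octamer in 7 bound and 8 unbound. The H1 box was present in 3 bound and 7 unbound genes, and GCGGGA in 6 and 11. Over all bound promoters GCGGGA was held by 40%, above its share of all promoters, and CCAAT by 37.9%, the same as its share of all. The E-box CACGTG was in 0 of the 67 histone promoters, where 7.78% of all protein-coding promoters and 13.7% of all bound ones held it. TATAAA showed the opposite order among genes at large, with 6.7% of all bound promoters against 13.4% of all promoters. A match is only a match of letters and does not show that a factor was bound.

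In the KO list, 1 of the 67 histone genes had a peak, Hist3h2ba, beside 20 of the 22300 other protein-coding genes, which is 0.0897%. The KO list held 44 peaks on assembled chromosomes, called on a single sample, and the WT list held 6916, called on replicates by the study's methods, so the lists are not matched in samples. The KO peak (chr11:58762575-58762889) had a score of 42 and 4.37-fold enrichment and ranked 34 of the 44. Its summit lay 203 bp downstream of the TSS, 2 bp from the WT summit. Of the 17 WT peaks at histone genes, the 1 at Hist3h2ba overlapped a KO peak and the other 16 did not. With 44 KO peaks beside 6916 WT peaks, few WT peaks anywhere could overlap one, so the 16 are not a trait of the histone genes. Signal at Hist3h2ba was thus called with and without an intact Kdm5c gene, and whether it belongs to KDM5C was not tested. The lists were called separately, so their fold enrichments were not set against each other, and a missing KO peak does not show that signal was absent.

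A list of genes for histone gene regulation, mRNA processing and histone chaperones had peaks in 50% of cases. This was near the 44.1% of CpG-rich genes outside the histone set. Of 26 listed regulators, processing factors and chaperones, 24 were annotated and 12 were bound in WT (interval 29.1 to 70.9%), beside 23.9% of protein-coding genes outside the histone set, and 0 had a KO peak. The highest scores were at Ccne2 (547, 8.07-fold enrichment), the cyclin E2 that activates CDK2, Eri1 (421, 7.8-fold enrichment), an exonuclease of histone mRNA ends, and Pou2f1 (313, 5.97-fold enrichment), the octamer-binding factor OCT1. Each of these scores exceeded that of every replication-dependent histone gene. Npat, the coactivator of histone transcription, had a score of 141, with the peak midpoint 427 bp upstream of its TSS. This list was counted by the 1 kb rule, and whether another gene's TSS lay nearer to these peaks was not tested. Slbp, which encodes the stem-loop binding protein, and Hinfp, which encodes a transcription factor of H4 genes, had no peak. The interval of this list overlaps that of the histone genes, and the difference was not tested.

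Histone genes outside the replication-dependent set are mostly for variants made throughout the cell cycle. Of 18 listed, 14 were annotated under the names used and 2 were bound (14.3%, interval 1.78 to 42.8%, which spans the 23.9% background). H2afy, for the variant macroH2A, had a score of 169 and 5.12.-fold enrichment H2afz, for H2A.Z, had a score of 59 and 3.75.-fold enrichment Neither had a KO peak.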

How the data were processed

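KDM5C ChIP-Seq was analysed from 1 deposited peak list per genotype (4 samples: immunoprecipitate and input, WT and KO). Per the study's methods and the submitters' processing notes, the authors aligned reads to mm9 with Bowtie (1.1.2 in the notes, another version in the study's methods). They kept unique matches and called peaks with MACS2 2.1.0.20140616 against input. The study's methods filtered peaks on q-value and fold enrichment, and the limit was loose enough that scores of WT peaks at TSSs ran down to 10. The study's reporting form gives a lower limit of reads per sample; the lists hold no read counts, so the depth of each library was not available to these calculations. The deposited columns used were each peak's score, its fold enrichment (ratio of immunoprecipitate to input), its q-value as −log10, and its summit offset; a p-value column was not used. The labels give EpiLCs at day 2, and the study's methods count those days from the EpiLC stage. Sources differ on whether replicates were technical.

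Peak midpoints were matched to GENCODE M1 TSSs in Python 3.11.15 (NumPy 2.4.6, pandas 2.3.3). Shares carry exact Clopper-Pearson 95% intervals (SciPy 1.17.1), for counting error only. Unique sequence was counted as exact 50-base windows of mm9 (Numba 0.67.0), without mismatches. Window counts and the 1 kb rule were tested on simulated data. Members and lists were chosen with earlier results of these data known. Named genes were all bound members, testis genes, members at the 1 kb limit, KO members and the 3 top-scoring genes of each list. Npat, Slbp, Hinfp, Pom121l2, Hfe and genes in or beyond the empty stretches were added after values were seen. The stem-loop search and the run shared by H2B summits were added then too. Alternatives changed the window, peak position, score minimum and TSS choice.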

Additional observations from a re-analysis of the deposited data

How the results depend on the processing

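Across 10 settings, 106 alternative values were computed for 14 results: 71 stayed within 1.5 times the main value and 35 moved further. The order of the histone share and the background turned when a peak had to cover the TSS (16.4 and 17.2%) and at the median score (8.96 and 13%). When a peak had to cover the TSS, the count of bound histone genes was 11 on 10 peaks, and 0 in KO. By type these were 1 H1, 2 H2A, 6 H2B, 1 H3 and 1 H4 gene, with 8 in Hist1 and 1 in Hist2. With the minimum score at the WT median of 82 it was 6 on 4 peaks, with 0 H1, 2 H2A, 3 H2B, 0 H3, 1 H4, 2 Hist1, 2 Hist2 and 0 testis genes, 0 in KO, and 13% of other genes. With the minimum score at the WT 90th percentile of 320 it was 0 in every type, cluster and list, WT and KO, beside 2.79% of other genes. A window of 500 bp left 1 H4 gene, and counting only the nearest protein-coding TSS left 2 Hist2 genes. A window of 2 kb gave 23 bound genes, adding Hist1h2af and Hist2h2ab. The summit in place of the midpoint and the 5′-most TSS each kept the same 21 genes.

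No paired analysis was possible because a single list was deposited for either genotype. With 1 list per genotype and no read counts in it, a peak near the calling threshold cannot be weighed against the spread between replicates. Scores take few distinct values: 74.8% of WT peaks share score, fold enrichment and q-value with another, and 3 histone peaks (at Hist1h2bf, Hist1h3d and upstream of Hist1h2bm) share 1 set of values with each other. Exact windows without mismatches understate what 2-mismatch alignment discards. Types, clusters and empty stretches hold few genes, and neighbouring genes are not independent.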
